A study of Homo sapiens with 9 samples.

Results

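The MYC and MAX network was followed in HepG2 cells, an established human liver tumor line, with Gln added and after 12 h or 24 h of Gln deprivation. The genes were taken by name from the deposited FPKM table, and all 9 of them (MYC, MYCN, MAX, MXD1, MXD3, MXD4, MXI1, MNT and MGA) were found among its 22587 genes. FPKM counts fragments per kilobase of gene, relative to the size of the library, so levels can be compared between genes and summed. Each of the 3 groups held 3 libraries of bulk RNA, named in the labels as normal medium, 12 h of deprivation and 24 h of deprivation. All cultures grew in high-glucose DMEM with fetal bovine serum, and the labels name no gene edit or transgene for these libraries. GlutaMAX, a dipeptide that releases Gln, is assigned by the sample labels to normal medium, whereas the treatment protocol places it in the Gln-free medium. The labels give no hour of harvest for normal medium, so deprivation and time since the change of medium cannot be told apart.

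MYC proteins dimerize with MAX, bind E-box sequences (CACGTG and related) and raise genes of ribosome production, nucleotide synthesis and nutrient uptake. The MXD proteins (MXD1, MXD3, MXD4 and MXI1, the last also called MXD2) and MNT compete for MAX and bring SIN3 and histone deacetylases to the same sites, while MGA takes MAX into a Polycomb complex. MYC is frequently amplified in liver cancer and is known for making many tumor cells dependent on Gln.

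The libraries held 29621270 to 36261546 fragments on genes, recovered from the FPKM steps, and 414 to 11176 fragments stood behind each value of a network gene. All 10 hepatocyte and hepatoma markers were detected above 0.5 FPKM. At each time 6 of them were called lower and 1 higher (median log2 fold change -0.18 and -0.17). Over all genes tested, 31.0% were called lower and 29.1% higher at 12 h, and 31.7% and 33.0% at 24 h. The summed level of the markers was 7565 to 7665 FPKM with Gln added, 6636 to 6707 after 12 h and 6414 to 6747 after 24 h. The part of this in the results was not tested. Of the 6 markers of other cell types in the table, 5 stayed under 0.5 FPKM in every library, among them the endothelial CDH5 and the fibroblast genes COL1A1, COL1A2 and DCN. The exception was CD68, a lysosomal protein used as a macrophage marker, whose means were 36.1, 29.6 and 22.9 FPKM in the Gln-added, 12 h and 24 h groups. The summed level of the 6 was 36.3 to 36.6 FPKM with Gln added, 28.8 to 31.7 after 12 h and 21.3 to 25.9 after 24 h, and its part in the results was not tested. In the group with Gln added, 3 of the 6 were listed at 0 in every library. The leukocyte markers PTPRC and CD3E were not found in the table. Differences were tested with limma on log2(FPKM + 0.1) over 11880 genes averaging 0.5 FPKM or more, and a gene was called at a Benjamini-Hochberg adjusted p under 0.05. Nothing in the labels says whether the replicates were separate cultures, so the tests measure the spread between these libraries.

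At 12 h of Gln deprivation 9 of the 9 network genes were called, against 60.2% of all genes tested. Of these, 7 were higher (MYC, MAX, MXD1, MXD4, MXI1, MNT and MGA) and 2 lower (MYCN and MXD3), where 29.1% of all genes were called higher and 31.0% lower. At 24 h, 8 were called against a background of 64.7%, with 6 higher (background 33.0%) and 2 lower (background 31.7%), and MNT was not called. From 12 h to 24 h, 3 were called (background 20.1%): MXD4 and MXI1 were higher at 24 h (background 9.57%) and MYC was lower (background 10.5%). These backgrounds mean that most genes tested were called at both times. The median log2 fold change of all genes was -0.02 at 12 h and 0.01 at 24 h, and the median size of a change was 0.25 and 0.28. With 3 libraries against 3, the two-sided exact permutation test cannot go below 0.1, the value it gives whenever the groups do not overlap.

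**Figure D1:**
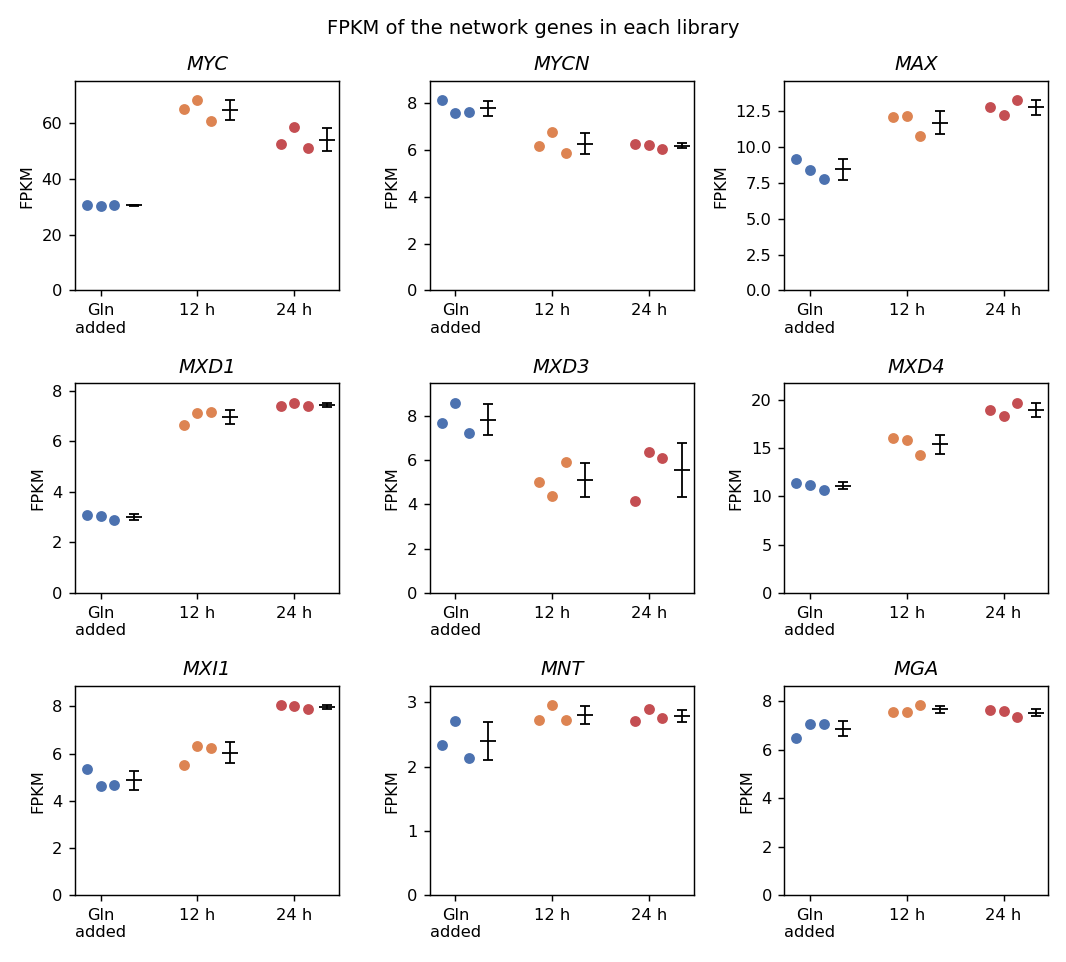
FPKM (y axes, from 0) of the 9 network genes in each library, with 1 point per library by group and the mean with its SD as a bar (n = 3). MYC and MXD1 more than doubled at 12 h, MYCN and MXD3 lay below the libraries with Gln added, and MXD4 and MXI1 were highest at 24 h.

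MYC was the most abundant of the 9 transcripts in every group. Its level was 30.5, 30.4 and 30.8 FPKM in the libraries with Gln added, 64.9, 68.2 and 60.8 at 12 h, and 52.4, 58.7 and 51.1 at 24 h. All 6 deprived libraries lay above the 3 with Gln added, and all 3 libraries at 24 h lay below the 3 at 12 h. The mean rose from 30.6 ± 0.19 FPKM (SD, n = 3) to 64.6 ± 3.71 at 12 h, a ratio of 2.11, and stood at 54.1 ± 4.05 at 24 h, a ratio of 1.77. The log2 fold change was 1.08 (95% confidence interval 0.95 to 1.20, adjusted p = 8.48e-08 by limma) at 12 h and 0.82 (0.69 to 0.94, adjusted p = 4.17e-07) at 24 h. Only 3.24% of all genes tested changed by as much at 12 h, and 9.97% did at 24 h. MYC then fell by 0.26 on the log2 scale from 12 h to 24 h (interval of the difference -0.38 to -0.13, limma adjusted p = 0.00932). The 3 libraries with Gln added differed by a coefficient of variation of 0.629%, less than the 1.42% to 1.44% that counting alone would give, and those at 24 h by 7.49%. As the RNA comes from bulk cultures and FPKM are relative to each library's total, fewer cells with the transcript and less of it per cell cannot be told apart, here and below. MYC lies on the plus strand of chromosome 8 (GRCh38, GENCODE v44), from 127735434 to 127742951.

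MYCN, the paralog best known from neuroblastoma, went the other way. Its level was 8.11, 7.54 and 7.61 FPKM with Gln added, 6.14, 6.73 and 5.86 at 12 h, and 6.23, 6.21 and 6.04 at 24 h. No deprived library reached the lowest library with Gln added, while the libraries of the 2 times overlapped. The log2 fold change was -0.31 at 12 h (interval -0.44 to -0.18, limma adjusted p = 0.000948) and -0.33 at 24 h (adjusted p = 0.000571). Changes of this size were common, with 41.8% of all genes changing by as much at 12 h and 44.2% at 24 h. Between the times the difference was -0.02 (interval -0.15 to 0.11). The third paralog, MYCL, is not among the 9 genes and is near the detection floor; it was singled out after its values were seen. Between 22 and 33 fragments supported it in each library with Gln added, and between 113 and 125 under deprivation. Its mean went from 0.171 to 0.727 FPKM at 12 h and 0.712 at 24 h, and it rose by 1.61 and 1.59 on the log2 scale (limma adjusted p = 1.97e-05 and 1.64e-05). MYC made up 79.4% ± 0.69 (SD, n = 3) of the summed MYC, MYCN and MYCL transcript with Gln added, and 90.3% ± 0.029 and 88.7% ± 0.65 after 12 h and 24 h. MYCN lies on the plus strand of chromosome 2, from 15940550 to 15947007.

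MAX, the partner shared by the MYC proteins and their antagonists, rose at both times. It stood at 9.16, 8.35 and 7.72 FPKM with Gln added, at 12.1, 12.1 and 10.8 at 12 h, and at 12.7, 12.2 and 13.2 at 24 h. The groups did not overlap, and the deprived libraries were all higher. It was raised by 0.47 on the log2 scale at 12 h (interval 0.31 to 0.62, limma adjusted p = 0.000189) and by 0.59 at 24 h (0.44 to 0.75, adjusted p = 2.58e-05). Although every library at 24 h was above every library at 12 h, the difference of 0.13 between the times did not pass the test (interval -0.03 to 0.28, limma adjusted p = 0.236). MAX lies on the minus strand of chromosome 14, from 65006174 to 65102695. Genes on the opposite strand, FNTB among them, cover 16.1% of its 6257 exonic bases in GENCODE v44. The gene length that goes with the recovered fragments was 3205 bases, so the counted gene model may lack some of this overlap. Reads of any overlap can be assigned to MAX only if the counting used strand, which is not settled.

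**Figure D2:**
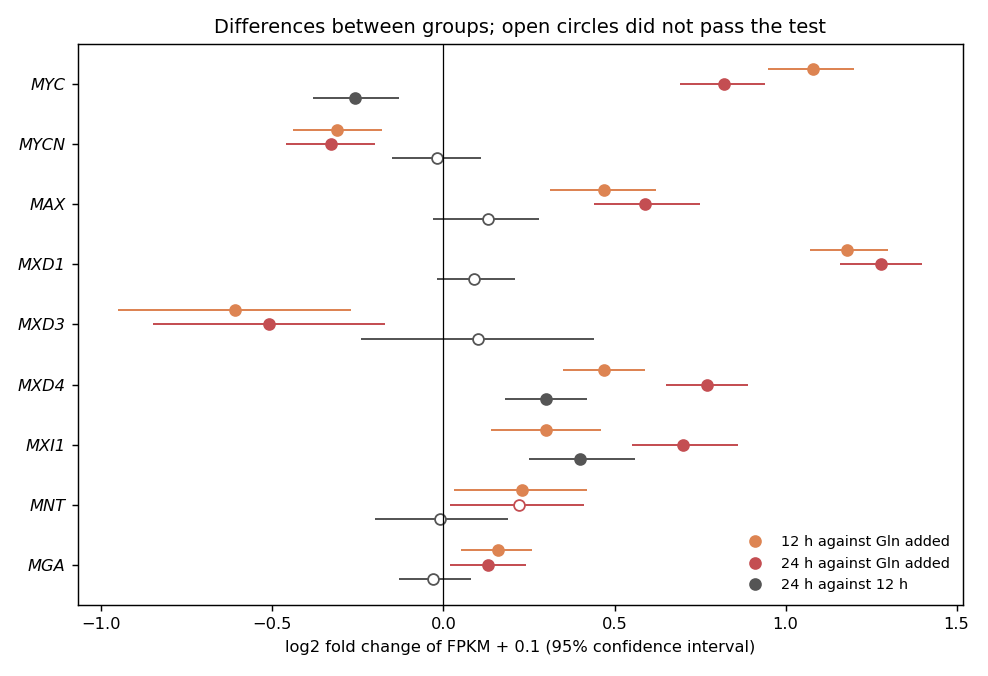
Log2 fold change of FPKM + 0.1 (x axis) with its 95% confidence interval from limma for each network gene, at 12 h and at 24 h against Gln added and at 24 h against 12 h. Filled circles passed an adjusted p of 0.05. MYC and MXD1 changed most, and MYC, MXD4 and MXI1 passed the test between the times.

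The MXD family changed in both directions. MXD1 (also called MAD1), the founding antagonist, which is raised as many cell types differentiate, had the largest change of the 9 genes. It stood at 3.10, 3.06 and 2.88 FPKM with Gln added, at 6.64, 7.13 and 7.15 at 12 h, and at 7.41, 7.54 and 7.39 at 24 h. Every deprived library had more than 2 times the level of every library with Gln added. The log2 fold change was 1.18 at 12 h (interval 1.07 to 1.30, limma adjusted p = 2.57e-08) and 1.28 at 24 h (1.16 to 1.40, adjusted p = 9.22e-09). As large a change was seen in 2.51% of all genes at 12 h and 3.05% at 24 h. The difference between the times was 0.09 (interval -0.02 to 0.21) and did not pass the test (limma adjusted p = 0.241).

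MXD4, which is found in many differentiated tissues, was the most abundant antagonist in every group. Its values were 11.4, 11.2 and 10.7 FPKM with Gln added, 16.1, 15.9 and 14.3 at 12 h, and 19.0, 18.3 and 19.7 at 24 h. The 3 groups were in that order with no overlap. It rose by 0.47 on the log2 scale at 12 h (interval 0.35 to 0.59, limma adjusted p = 2.94e-05) and by 0.77 at 24 h (0.65 to 0.89, adjusted p = 4.89e-07). The step from 12 h to 24 h was 0.30 (0.18 to 0.42, limma adjusted p = 0.00322).

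MXI1, a MAX partner first described as a MYC antagonist and a tumor suppressor candidate, showed the same order of groups. It measured 5.34, 4.63 and 4.65 FPKM with Gln added, 5.52, 6.34 and 6.23 at 12 h, and 8.05, 8.01 and 7.87 at 24 h. The gap at 12 h was narrow, with the highest library with Gln added just under the lowest at 12 h, and the libraries at 24 h stood clear of both. It rose by 0.30 on the log2 scale at 12 h (interval 0.14 to 0.46, limma adjusted p = 0.0036) and by 0.70 at 24 h (0.55 to 0.86, adjusted p = 7.64e-06). Of all genes tested, 42.8% changed by as much at 12 h and 13.9% at 24 h. From 12 h to 24 h MXI1 rose by 0.40 (0.25 to 0.56, limma adjusted p = 0.00292).

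MXD3, the family member associated with proliferating cells, was lower under deprivation. It measured 7.65, 8.59 and 7.21 FPKM with Gln added, 5.02, 4.39 and 5.92 at 12 h, and 4.15, 6.38 and 6.09 at 24 h. The deprived libraries all lay below those with Gln added, but they were spread widely, with a coefficient of variation of 21.9% at 24 h against the 4.11% to 4.91% that counting would give. The log2 fold change was -0.61 at 12 h (interval -0.95 to -0.27, limma adjusted p = 0.00574) and -0.51 at 24 h (-0.85 to -0.17, adjusted p = 0.0136). Without replicate 2 of the Gln-added group, the call at 24 h was lost (log2 fold change -0.44, limma adjusted p = 0.0532), and without replicate 1 at 24 h, the lowest library, the value moved to -0.32. In GENCODE v44, RAB24 on the same strand shares 19.5% of the 4743 exonic bases of MXD3 and PRELID1 on the opposite strand 24.2%. These were the largest overlaps of the 9 genes. The gene length that goes with the recovered fragments was 2786 bases. Whether the overlaps lay in the counted gene model is therefore not settled.

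**Figure D3:**
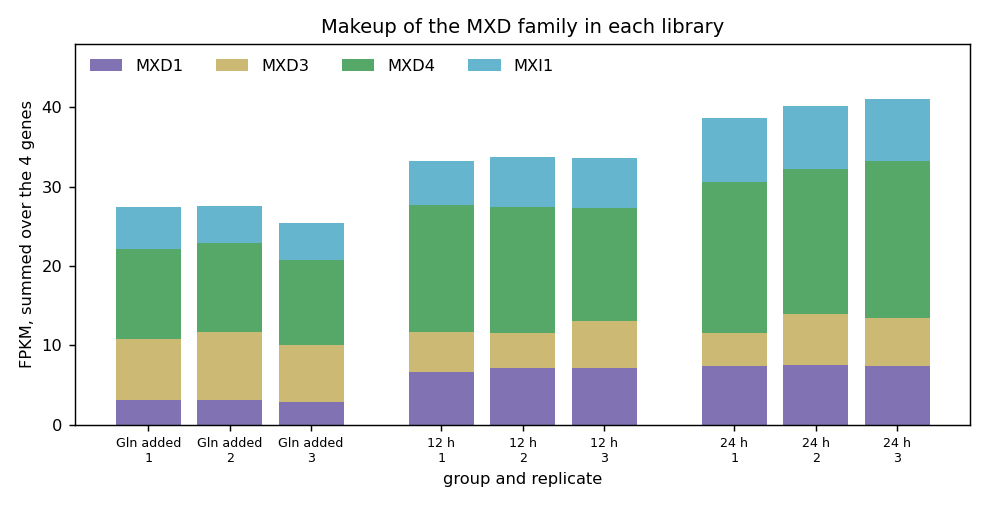
Summed FPKM of MXD1, MXD3, MXD4 and MXI1 in each of the 9 libraries (stacked bars, y axis from 0; the number under each bar is the replicate). The total grew from 25.4 to 27.5 FPKM with Gln added to 38.6 to 41.1 at 24 h, while MXD3 took a smaller share.

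The makeup of the MXD family shifted with these changes. Its 4 transcripts together amounted to 26.8 ± 1.19 FPKM (SD, n = 3) with Gln added and to 33.5 ± 0.25 and 40.0 ± 1.26 after 12 h and 24 h. In the Gln-added, 12 h and 24 h groups, MXD1 supplied 11.2% ± 0.097, 20.8% ± 0.73 and 18.7% ± 0.61 of the sum. MXD3 supplied 29.1% ± 1.82, 15.2% ± 2.30 and 13.8% ± 2.70 in these groups. MXD4 held 41.4% ± 0.61, 46.0% ± 3.04 and 47.6% ± 1.90 in the same order, and MXI1 18.2% ± 1.31, 18.0% ± 1.198 and 19.98% ± 0.85. These shares come from the same values as the tests above and carry no test of their own.

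MNT, the broadly expressed antagonist, and MGA, a very large protein that holds a MAX-binding domain and a T-box, changed least. MNT stood at 2.34, 2.71 and 2.13 FPKM with Gln added, at 2.72, 2.96 and 2.73 at 12 h, and at 2.70, 2.89 and 2.76 at 24 h. Replicate 2 with Gln added almost reached the lowest library at 12 h and overlapped the libraries at 24 h. The log2 fold change was 0.23 at 12 h (interval 0.03 to 0.42, limma adjusted p = 0.047) and 0.22 at 24 h (0.02 to 0.41, adjusted p = 0.0508, two-sided exact permutation p = 0.2), so MNT passed the test only at 12 h. Of all genes tested, 54.8% changed by as much at 12 h and 60% at 24 h. The call at 12 h was lost in 10 of 19 alternative settings, among them each case in which a library other than replicate 2 with Gln added was left out (adjusted p 0.0519 to 0.181). At 24 h, MNT was called in 6 of 19, among them the fit without that replicate (log2 fold change 0.31, limma adjusted p = 0.00875).

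MGA measured 6.51, 7.06 and 7.08 FPKM with Gln added, 7.58, 7.59 and 7.85 at 12 h, and 7.63, 7.62 and 7.37 at 24 h. Every deprived library lay above the highest with Gln added, but the distances were small. It rose by 0.16 on the log2 scale at 12 h (interval 0.05 to 0.26, limma adjusted p = 0.0175) and by 0.13 at 24 h (0.02 to 0.24, adjusted p = 0.0357), and 67.1% and 75.5% of all genes changed by as much. The call at 12 h was lost without replicate 1 with Gln added (adjusted p = 0.0795) or replicate 3 at 12 h (0.0506). The call at 24 h was lost in 5 of 19 settings: without replicate 1 with Gln added (0.15), replicate 1 at 24 h (0.0805) or replicate 2 at 24 h (0.0861), with median-ratio scaling (0.051), and with only the 2 groups compared in the fit (0.0556). MNT lies on the minus strand of chromosome 17, from 2384073 to 2401104, where genes on the opposite strand cover 12.2% of its exonic bases, and MGA on the plus strand of chromosome 15, from 41621134 to 41773081.

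The order of the 9 levels changed around a fixed top. MYC, MXD4 and MAX held the first 3 places in every group, and MNT the last. With Gln added, MAX, MXD3 and MYCN overlapped with their neighbours in the order, at 8.41, 7.82 and 7.75 FPKM, and MXD1 came before last at 3.01. At 12 h MXD1, MYCN, MXI1 and MXD3 formed an overlapping run from 6.97 to 5.11 FPKM. At 24 h MXI1 came next at 7.98 FPKM, MGA and MXD1 overlapped at 7.54 and 7.45, and MYCN and MXD3 overlapped at 6.16 and 5.54.

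The summed levels put the MYC proteins and the antagonists side by side. MYC and MYCN together amounted to 38.3 ± 0.35 FPKM (SD, n = 3) with Gln added and to 70.9 ± 4.14 and 60.2 ± 4.11 after 12 h and 24 h. The 6 antagonists together were at 36.1 ± 1.34, 43.99 ± 0.40 and 50.3 ± 1.19 FPKM. The ratio of the sums was 1.06, 1.02 and 1.11 in the libraries with Gln added, 1.63, 1.69 and 1.51 at 12 h, and 1.198, 1.28 and 1.116 at 24 h. All libraries at 12 h lay above those of both other groups, and the lowest library at 24 h was just above the highest with Gln added. Relative to MAX, the MYC proteins were at 4.58 ± 0.38 (Gln added), 6.08 ± 0.18 (12 h) and 4.75 ± 0.51 (24 h), and the antagonists at 4.31 ± 0.30, 3.79 ± 0.28 and 3.96 ± 0.17. The ratio to MAX of the MYC proteins overlapped between Gln added and 24 h, and that of the antagonists overlapped among all groups. A score over chosen genes carries no test here, and transcript ratios are not protein ratios.

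**Figure D4:**
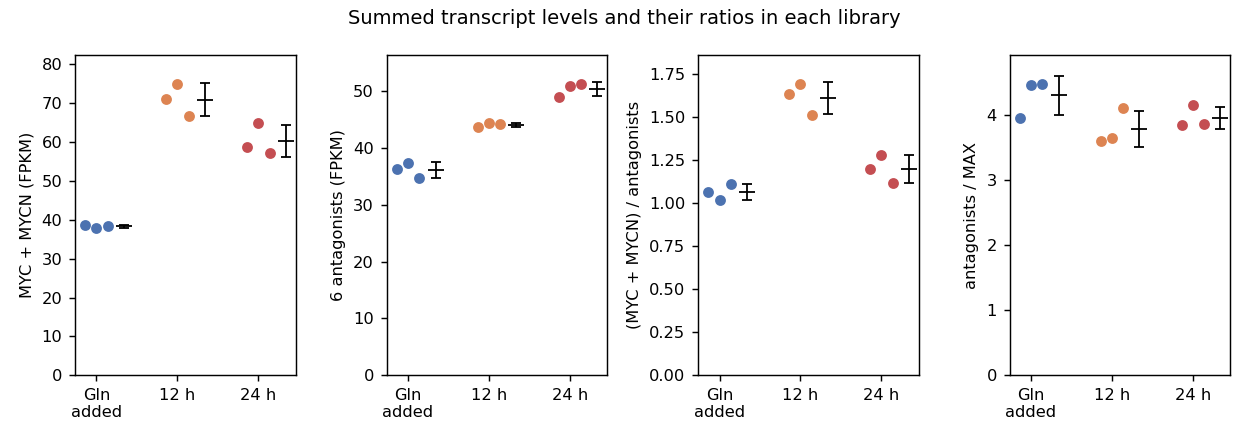
Summed FPKM of MYC and MYCN, summed FPKM of the 6 antagonists, the ratio of the first to the second, and the ratio of the antagonists to MAX, 1 point per library with the group mean and SD (n = 3, y axes from 0). The ratio of MYC proteins to antagonists averaged 1.06 with Gln added and 1.61 and 1.198 after 12 h and 24 h.

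Stretches before gene starts were read from the RefSeq promoter table (GRCh38.p14), which held 13 windows of 300 bases for 8 of the 9 genes. Some genes had several starts. The stretches are shown for the antagonists with a match to CACGTG or TGANTCA. Of these genes, MXD4 rose, MXD3 fell and MNT was borderline, and whether the motifs bear on these changes was not tested. The capitals mark the E-box CACGTG in MXD4 and MNT and the AP-1 site TGANTCA in MXD3. Only bases before the gene start that no GENCODE v44 exon covers are printed, on the strand of the gene: MXD4 at chr4:2262110-2262359 (minus strand), MNT at chr17:2401105-2401310 (minus strand) and MXD3 at chr5:177312758-177313002 (minus strand).
MXD4: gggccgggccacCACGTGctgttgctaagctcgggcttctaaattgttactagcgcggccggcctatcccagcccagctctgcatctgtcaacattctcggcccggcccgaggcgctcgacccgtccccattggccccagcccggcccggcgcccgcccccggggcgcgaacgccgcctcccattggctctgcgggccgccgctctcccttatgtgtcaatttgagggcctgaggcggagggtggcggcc
MNT: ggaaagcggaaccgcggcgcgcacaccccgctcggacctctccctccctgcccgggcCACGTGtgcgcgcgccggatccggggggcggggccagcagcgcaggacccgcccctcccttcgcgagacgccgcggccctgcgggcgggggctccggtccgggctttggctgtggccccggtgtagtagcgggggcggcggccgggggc
MXD3: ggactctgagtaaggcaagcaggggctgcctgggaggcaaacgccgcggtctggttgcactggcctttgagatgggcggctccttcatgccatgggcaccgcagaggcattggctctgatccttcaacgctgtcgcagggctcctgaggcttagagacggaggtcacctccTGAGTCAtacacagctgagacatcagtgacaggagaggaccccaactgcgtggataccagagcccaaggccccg
Among all 35116 RefSeq windows, CACGTG was present in 7.26%, and among the windows of the network genes in 2 of 13. TGANTCA was present in 7.71% of all windows and in 1 of the 13. TGATGNAA, the core of the composite element read by ATF4 with C/EBP proteins, was present in 3.62% of all windows and in 0 of the 13. Both strands were searched, CACGTG and TGANTCA read the same on both, and none of the searched motifs overlapped in a printed stretch. A match describes the letters of the window and not binding.

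G-rich runs that can fold into G-quadruplexes, of which the MYC promoter holds a well-known example, were also searched, as 4 runs of at least 3 G with spacers of 1 to 7 bases on either strand. They were present in 25.0% of all RefSeq windows and in 5 of the 13, which belong to MAX, MXD4 and MXI1. Of the 3 genes, MAX rose by 0.47, MXD4 by 0.47 and MXI1 by 0.30 on the log2 scale at 12 h. Among the genes with windows but no such runs, MXD1 rose by 1.18, MNT by 0.23 and MGA by 0.16. MYCN and MXD3, also without them, changed by -0.31 and -0.61, and MYC had no window. Whether the runs bear on these levels was not tested. Examples are given with the G runs in capitals, on the strand that holds them. Each lies before the RefSeq start of its window. For MXI1 and MAX these are further starts, which lie inside the gene as placed by GENCODE v44.
MXD4: GGGGGcGGGcgccGGGccGGGctGGGG
MXI1: GGGcggcGGGGtGGGGGGtGGGGGG
MXI1: GGGGcGGGaGGGGGcGGG
MAX: GGGGGccGGGGaaGGGcggagaGGGG

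The extended network, from a list of MYCL, MLX and its glucose-sensing partners MLXIP (MondoA) and MLXIPL (ChREBP), was higher in all 4 of its genes at both times, with a median log2 fold change of 0.34 at 12 h and 0.37 at 24 h. Over all genes tested, 29.1% were called higher at 12 h and 33.0% at 24 h. MLXIPL, which drives glycolytic and lipogenic genes in liver, went from 42.6 ± 1.92 FPKM (SD, n = 3) to 54.1 ± 3.29 and 55.5 ± 3.01. It rose by 0.34 and 0.38 on the log2 scale (limma adjusted p = 0.000361 and 0.000142). MLXIP rose by 0.34 and 0.36, from 8.24 to 10.4 and 10.6 FPKM, and MLX by 0.25 and 0.26, from 29.6 to 35.2 and 35.5 FPKM. None of the 4 passed the test between the times.

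Among 20 cofactors of MYC and proteins of its turnover, 8 were higher and 4 lower at 12 h, and 9 were higher and 7 lower at 24 h (median log2 fold change 0.09 at both times). The shares over all genes were 29.1% higher and 31.0% lower at 12 h, and 33.0% and 31.7% at 24 h. SKP2, a ubiquitin ligase subunit that targets MYC and the cell cycle inhibitor p27, fell from 17.4 ± 0.46 FPKM to 7.23 ± 0.69 and 6.06 ± 0.25. Against Gln added it changed by -1.26 and -1.50 on the log2 scale (limma adjusted p = 9.02e-08 and 1.48e-08). CIP2A, an inhibitor of the phosphatase PP2A that protects MYC protein, fell from 4.76 to 3.10 and 2.31 FPKM (log2 fold change -0.60 and -1.01, limma adjusted p = 8.26e-06 and 1.17e-07). AURKA, a mitotic kinase that stabilizes MYCN protein, was at 67.7 ± 1.05 FPKM with Gln added and 68.1 ± 0.85 at 12 h, and fell to 38.0 ± 1.15 at 24 h (log2 fold change -0.83, limma adjusted p = 8.07e-09).

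Of 16 subunits of the SIN3 and NCOR corepressors, which MXD proteins and MNT bring to DNA, 5 were higher and 3 lower at 12 h, and 5 higher and 6 lower at 24 h, with medians of 0.03 and -0.05. Background shares were 29.1% higher and 31.0% lower at 12 h, and 33.0% and 31.7% at 24 h. NCOR1 went from 13.5 to 18.5 and 17.7 FPKM (log2 fold change 0.45 and 0.38, limma adjusted p = 3.41e-06 and 7.84e-06). SIN3B, a scaffold bound directly by MXD proteins, rose from 5.21 to 6.37 and 7.15 FPKM (0.29 and 0.45). RBBP4, a histone-binding subunit, fell from 48.6 to 32.8 and 33.5 FPKM (-0.56 and -0.53, limma adjusted p = 2.84e-07 and 2.94e-07). SAP30 fell only at 24 h, from 11.1 to 7.71 FPKM (-0.52), and ING1 rose only at 12 h, from 2.17 to 2.90 FPKM (0.40), where both differences between the times passed the test (limma adjusted p = 0.00199 and 0.0298). The difference for ING1 lost its call when any of 5 libraries was left out, given with its values under the results for a closer look.

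In the Polycomb complex that holds MGA and MAX (PRC1.6, 9 further subunits), 2 were higher and 2 lower at 12 h, and 3 higher and 3 lower at 24 h, with medians of -0.01 and 0.09. For all genes the shares were 29.1% higher and 31.0% lower at 12 h, and 33.0% and 31.7% at 24 h. RYBP rose from 11.3 to 15.8 FPKM at both times (log2 fold change 0.47 and 0.48, limma adjusted p = 0.000209 and 0.000154). TFDP1, the dimer partner of E2F6, fell from 49.96 to 37.3 and 33.5 FPKM (-0.42 and -0.57, limma adjusted p = 2.58e-06 and 1.69e-07). CBX3, which reads methylated histone H3, fell from 77.9 to 62.1 and 58.0 FPKM (-0.33 and -0.43).

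Proteins known to act on the MYC promoter or the MYC mRNA were also mixed. Of 12 such genes, 4 were higher and 3 lower at 12 h, and 4 higher and 6 lower at 24 h, with medians of 0.03 and -0.10. Among all genes tested, 29.1% were called higher and 31.0% lower at 12 h, and 33.0% and 31.7% at 24 h. ZFP36L1 and ZFP36, which shorten the life of mRNAs with AU-rich elements, both rose. ZFP36L1 went from 17.6 ± 0.40 FPKM to 28.7 ± 0.45 and 29.4 ± 2.82 (log2 fold change 0.70 and 0.73, limma adjusted p = 2.86e-06 and 1.47e-06). ZFP36 went from 3.73 ± 0.097 to 5.69 ± 0.48 and 6.47 ± 0.67 (0.59 and 0.77, limma adjusted p = 0.000116 and 1.25e-05). DDX5, a helicase that unwinds the G-quadruplex of the MYC promoter, rose from 136 to 171 and 180 FPKM (0.33 and 0.40).

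**Figure D5:**
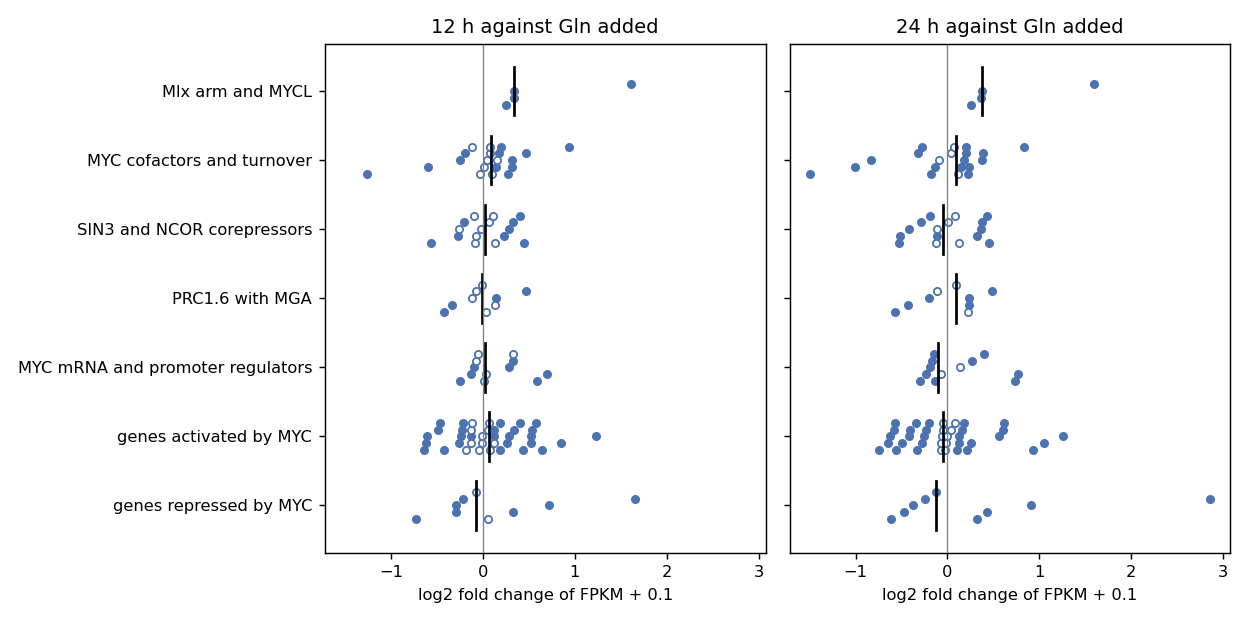
Log2 fold change of FPKM + 0.1 (x axes) of each tested gene in 7 lists around the network at 12 h and 24 h against Gln added. Filled points passed the test, the black bar is the median of the list, and points on both sides of 0 were seen in every list except that of MYCL and the MLX proteins.

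Genes that MYC is known to activate changed in both directions. Of 38 tested, 16 were higher and 11 lower at 12 h (median log2 fold change 0.07), and 13 higher and 15 lower at 24 h (median -0.05). The background was 29.1% higher and 31.0% lower at 12 h, and 33.0% and 31.7% at 24 h. From 12 h to 24 h, 1 was higher and 14 lower, where 9.57% of all genes were called higher and 10.5% lower (median -0.10, against 0.02 for all genes). SLC1A5, the main Gln importer of many tumor cells, went from 39.0 ± 1.36 FPKM to 91.5 ± 1.68 and 93.9 ± 3.42. It rose by 1.23 and 1.26 on the log2 scale (limma adjusted p = 2.18e-09 and 1.33e-09). SHMT2, the mitochondrial serine hydroxymethyltransferase, rose by 0.85 and 1.05, from 96.6 to 175 and 201 FPKM. In contrast, LDHA, which makes lactate, fell by 0.64 and 0.58 on the log2 scale, from 519 to 332 and 348 FPKM. NME1, a nucleoside diphosphate kinase, fell by 0.62 and 0.74, from 50.9 to 33.0 and 30.6 FPKM, with the reservation that its neighbour NME2 is a close copy and reads can be split between them. EIF4A1 was not found in the table, and BCAT1 was under the filter on low values.

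Genes that MYC is known to repress were divided too. Of 9 tested, 3 were higher and 4 lower at 12 h, and 4 higher and 5 lower at 24 h, with medians of -0.07 and -0.13. Again the background was 29.1% higher and 31.0% lower at 12 h, and 33.0% and 31.7% at 24 h. KLF6, a zinc finger factor that restrains growth, rose by 0.72 and 0.91 on the log2 scale (limma adjusted p = 3.61e-08 and 4.24e-09), from 19.7 to 32.5 and 37.1 FPKM. GADD45A, a stress-induced growth arrest gene, rose by 0.33 and 0.43, from 31.6 to 39.7 and 42.6 FPKM. NDRG1 fell by 0.73 and 0.47, from 12.1 to 7.26 and 8.67 FPKM (limma adjusted p = 5.22e-07 and 9.61e-06), and CEBPA, a liver differentiation factor, fell by 0.29 and 0.61, from 70.1 to 57.1 and 45.8 FPKM. CDKN2B, a cyclin-dependent kinase inhibitor singled out after its values were seen, rested on 20 to 33 fragments in each library with Gln added, 100 to 119 at 12 h and 247 to 299 at 24 h. It rose by 1.66 and 2.86 on the log2 scale (limma adjusted p = 1.63e-05 and 1.81e-07). CDKN1C was under the filter on low values.

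Over the 9 libraries, the genes whose pattern was most like that of MYC were GRIN2D, PLXNA2, ABCC2, GSE1 and SLC38A3, out of 10868 genes averaging 1 FPKM or more. Pearson's r on log2(FPKM + 0.1) was 0.996 for GRIN2D, 0.994 for PLXNA2 and ABCC2, and 0.993 for GSE1 and SLC38A3. The libraries fall into 3 groups, so these values mainly describe the same order of group means and carry no test. SLC38A3, a Gln transporter of the SN1 type, went from 30.7 ± 1.37 FPKM (SD, n = 3) to 53.1 ± 3.67 and 46.5 ± 3.18. ABCC2, the canalicular exporter MRP2, went from 163 ± 1.89 to 220 ± 3.94 and 207 ± 3.51 FPKM.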

How the data were processed

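RNA-seq of 9 HepG2 libraries was used. The authors aligned reads to GRCh38 with STAR, per the methods, and the submitters' processing notes also name HTSeq and R 3.2.0; the annotation version is not given in the sources used here. The labels name another library kit than the methods, so strandedness is not settled. Values are FPKM for each gene, as deposited by the authors, with no counts in the table. Fragments were recovered as whole multiples of the FPKM step in all libraries for 100% of the 22587 genes (within 0.01 fragments), and no column of values lacked a sample.

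Differences were tested with limma 3.58.1 (R 4.3.3; lmFit, eBayes with trend) on log2(FPKM + 0.1), which understates changes near 0.1 FPKM, for genes averaging 0.5 FPKM or more. All 3 groups entered 1 fit, and p-values were adjusted by Benjamini-Hochberg. The recovery and the fit were also run on simulated data. In the simulation of the fit few genes were changed, whereas most were called here. It therefore does not check the calls in these data. Exact permutation tests used scipy 1.17.1, and figures matplotlib 3.10.9. The members and lists were chosen with earlier results of these data known. Named were the 9 genes; in each list and at each time the 3 called genes with the largest change and a mean of at least 1 FPKM; and the 5 genes most correlated with MYC. An item that this rule selects is not reported here. Positions and overlaps come from GENCODE v44, which may not be the annotation the authors counted with, and promoters from RefSeq GRCh38.p14. The planned protein comparison was not done, since no protein table was used here. Alternatives covered pseudocounts of 1 and 0.01, filters, scaling, the groups in the fit, the replicate block, the trend, each library left out and voom on the recovered fragments. Adding MYCL to the ratio was chosen after seeing the data. All replicate pairs differed by more than counting noise (chi-square per gene 3.04 to 16.4).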

Additional observations from a re-analysis of the deposited data

Results flagged for a closer look

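The difference between 12 h and 24 h itself passed the test (limma, adjusted p under 0.05, log2 of 24 h over 12 h) for 20.1% of all genes tested. By direction, 9.57% of all genes were called higher at 24 h and 10.5% lower. Of the genes that passed, 14 are network genes or genes singled out from the lists. Further genes of the lists that passed are counted beside them. Among the network genes these were MYC (-0.26, adjusted p = 0.00932), MXD4 (0.30, 0.00322) and MXI1 (0.40, 0.00292). The 2 times share the libraries with Gln added, so the values at each time are not independent, and the fit took its spread from all 3 groups. With only the 2 deprived groups in the fit, the calls of ING1 (adjusted p = 0.066) and SKP2 (0.0659) were lost, as they were with no filter on low values (0.0682 and 0.0584).

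Of 20 MYC cofactors and turnover genes, 1 was called higher at 24 h than at 12 h, KAT2A (0.23, limma adjusted p = 0.00833), and 5 lower. KAT2A, KAT5 (-0.21, 0.00655) and RUVBL2 (-0.15, 0.0204) are given for completeness, after their values were seen. Of the others, AURKA (-0.84, limma adjusted p = 7.29e-07), CIP2A (-0.41, 0.000916) and SKP2 (-0.25, 0.0254) were lower at 24 h than at 12 h. SKP2 lost this call without replicate 2 at 12 h (-0.25, adjusted p = 0.0605), replicate 3 at 12 h (-0.17, 0.059), replicate 1 at 24 h (-0.22, 0.0588) or replicate 2 at 24 h (-0.24, 0.0621). Of 16 corepressor subunits, 2 were called higher and 3 lower. ARID4A (0.30, limma adjusted p = 0.0169) and ARID4B (0.25, 0.0215) were higher and RBBP7 (-0.15, 0.0154) was lower, all 3 named after their values were seen. SAP30 (-0.42, limma adjusted p = 0.00199) and ING1 (-0.28, 0.0298) were lower too. ING1 lost its call without replicate 1 (adjusted p = 0.0763), 2 (0.0612) or 3 (0.0732) at 12 h, or without replicate 2 (0.0948) or 3 (0.0985) at 24 h. TFDP1 of the MGA complex was lower (-0.15, limma adjusted p = 0.012).

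Of 38 genes that MYC is known to activate, SHMT2 (0.20, limma adjusted p = 0.00487) was the 1 called higher at 24 h than at 12 h, while 14 were called lower, among them HK2 (-0.37, 0.000101) and SLC7A5 (-0.31, 0.000873), named after their values were seen. Of 9 genes that MYC is known to repress, 4 were called higher and 3 lower. KLF6 (0.19, limma adjusted p = 0.0034), NDRG1 (0.25, 0.00492) and CDKN2B (1.21, 0.000975) were among the higher, and CEBPA (-0.32, 0.00074) was among the lower. CDKN2B was singled out after its values were seen.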

How the results depend on the processing

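No result reversed among 2862 alternative values for 153 results. Of 513 values for single network genes, 489 kept their side of the threshold, and the others concerned MNT, MGA and MXD3. The count of network genes called was 7 to 9 at 12 h, 7 to 9 at 24 h and 3 between the times in every setting. Same-numbered libraries of different groups had correlations of their deviations between -0.136 and 0.283. Differently numbered ones had correlations between -0.467 (replicate 3 at 12 h with replicate 1 at 24 h) and 0.296 (replicate 3 at 12 h with replicate 2 at 24 h). The numbers were therefore not taken to pair the libraries, and what the deprived libraries share across numbers was not tested. With the replicate number as a block (replicate block), 9, 9 and 3 were called, and MNT passed at 24 h (adjusted p = 0.0299 by limma). Among the genes like MYC, the block changed the call of SLC38A3 between the times (-0.19, adjusted p = 0.0111). Counts called between the times moved most: with only the 2 groups in the fit, 3 corepressors in place of 5 and 9 genes activated by MYC in place of 15; with median-ratio scaling, 2 subunits of the MGA complex in place of 1. Leaving out 1 library gave 1 to 6 corepressors (1 without replicate 1 at 12 h, 3 without replicate 2 at 12 h or replicate 2 or 3 at 24 h) and 1 to 2 regulators of MYC mRNA (1 without replicate 1 at 12 h or replicate 2 at 24 h, 2 with all). Fits with 1 library left out also hold fewer libraries. The cause of these moves was not tested. The ratio of MYC proteins to antagonists stayed within 1.04 to 1.09 with Gln added, 1.57 to 1.66 at 12 h and 1.16 to 1.24 at 24 h when 1 library was left out, is unaffected by scaling between libraries, and was 1.07, 1.63 and 1.21 with MYCL added. MYCL and CDKN2B are limited by depth, at 20 to 33 fragments per library with Gln added.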
